A study of Mus musculus with 12 samples.

Results

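The genes described here are the nuclear genes for subunits of the oxidative phosphorylation complexes I to V, chosen by gene name. The names match Ndufa, b, c, s or v with a number, Sdha to Sdhd, Uqcr, Cox4 to Cox8 with a letter or Atp5, leaving out Cox7a1 and Cox8b, which encode isoforms known from muscle and brown fat. Of the 17920 genes in the files, 82 matched: 37 of complex I, 4 of complex II, 8 of complex III, 16 of complex IV and 17 of complex V. Ndufa4 and Ndufa4l2 were counted with complex IV, where the protein made by Ndufa4 resides, and Cox7a2l, a factor for supercomplexes of III and IV, was kept there too. Of these genes, 81 passed the filter of 0.5 FPKM, a level scaled to gene length and library size, in at least 3 of 12 libraries. Ndufb4b, a copy of Ndufb4, did not, with 0.870 FPKM in LPS+bLF replicate 1 and 0 in the other 11 libraries. The 82 genes lie on 19 chromosomes. None of the names searched for subunits encoded by mitochondrial DNA was in the files, so these subunits were not analysed here.

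Oxidative phosphorylation takes place in the inner mitochondrial membrane. Complexes I and II feed electrons from NADH and succinate to ubiquinone, complex III passes them to cytochrome c and complex IV to oxygen. Complexes I, III and IV pump protons, and complex V, the ATP synthase, lets protons flow back to make ATP. Most subunits are encoded in the nucleus, and their mRNA is abundant in tissues rich in mitochondria such as heart muscle and brown fat.

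The tissue was lung of male BALB/c mice aged 6 to 8 weeks, and 3 mice of each of 4 groups of 6 were sequenced after 14 days of modelling, with 1 library per mouse. LPS+bLF mice had lipopolysaccharide, a cell wall product of Gram-negative bacteria that provokes inflammation, together with bovine lactoferrin, an iron-binding milk protein. LPS mice had lipopolysaccharide (50 µL at 1 µg/µL), bLF mice had lactoferrin (200 mg/kg per day) and control mice had neither. The labels give neither the route nor the day of LPS, so the groups are described by treatment alone. The series asks how lactoferrin acts on lung injury by LPS.

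Total counts ranged from 16714327 to 17820645 per library. The lung genes Sftpc, Ager and Pecam1 were detected in every library, with at least 43000.3, 3701 and 152 FPKM. Some libraries stood apart within their groups. LPS+bLF replicate 2, bLF replicate 1 and control replicate 1 held high levels of brown fat, white fat and heart muscle genes, LPS+bLF replicate 3 of skeletal muscle and squamous epithelium genes, and LPS replicate 1 of neutrophil genes, with 3067 genes at 0. Main results that rest on LPS+bLF replicate 2, bLF replicate 1, control replicate 1 or LPS replicate 1 are given with and without them. LPS+bLF replicate 3 was left out only in the ranges from leaving out each library in turn. In bulk tissue, fewer cells of a type and less RNA per cell cannot be told apart.

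Promoter windows of 250 bases before the start of an annotated transcript were available for 66 of the 82 genes (71 windows, RefSeq, GRCm38.p6). Of these windows 16 reached into the span of their own gene, which other transcripts extend, and 8 lay wholly inside it. The set shown here was picked by hand to hold genes that follow the library pattern below and genes that do not. Uqcrc1, Cox5a, Sdha and Cox6a1 were among the genes that were highest of their group in LPS+bLF replicate 2, bLF replicate 1 and control replicate 1. Ndufb4 was not, and Atp5g1, Atp5g2 and Atp5g3 encode the same mature c subunit and differed from each other. The windows lie at chr9:108936398-108936647, plus strand (Uqcrc1), chr9:57520982-57521231, plus strand (Cox5a), chr13:74350241-74350490, minus strand (Sdha), chr5:115348959-115349208, minus strand (Cox6a1), chr16:37654369-37654618, minus strand (Ndufb4), chr11:96075632-96075881, minus strand (Atp5g1), chr15:102671048-102671297, minus strand (Atp5g2) and chr2:73911327-73911576, minus strand (Atp5g3). Those of Cox5a and Atp5g3 lie wholly inside the span of the gene, and that of Atp5g1 overlaps it by 63 bases. Capitals mark matches, on either strand, to the NRF1 core (GCGCA, any base and GCGC), the ETS motif of GABPA CCGGAAG, the ERR site AAGGTCA or the YY1 motif AANATGGCG.
Uqcrc1: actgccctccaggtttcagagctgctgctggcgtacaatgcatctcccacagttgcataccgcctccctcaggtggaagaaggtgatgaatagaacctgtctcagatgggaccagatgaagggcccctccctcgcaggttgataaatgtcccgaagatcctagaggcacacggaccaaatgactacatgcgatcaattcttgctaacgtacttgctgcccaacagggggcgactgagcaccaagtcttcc
Cox5a: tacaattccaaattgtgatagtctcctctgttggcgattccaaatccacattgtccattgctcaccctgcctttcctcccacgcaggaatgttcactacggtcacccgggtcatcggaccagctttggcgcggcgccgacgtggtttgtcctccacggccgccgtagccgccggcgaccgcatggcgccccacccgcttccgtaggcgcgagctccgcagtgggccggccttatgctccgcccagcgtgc
Sdha: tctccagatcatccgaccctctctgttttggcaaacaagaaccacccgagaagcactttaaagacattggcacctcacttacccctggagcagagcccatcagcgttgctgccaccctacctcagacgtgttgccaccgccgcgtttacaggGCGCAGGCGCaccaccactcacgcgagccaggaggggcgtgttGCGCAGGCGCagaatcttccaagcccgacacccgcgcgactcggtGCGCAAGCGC
Cox6a1: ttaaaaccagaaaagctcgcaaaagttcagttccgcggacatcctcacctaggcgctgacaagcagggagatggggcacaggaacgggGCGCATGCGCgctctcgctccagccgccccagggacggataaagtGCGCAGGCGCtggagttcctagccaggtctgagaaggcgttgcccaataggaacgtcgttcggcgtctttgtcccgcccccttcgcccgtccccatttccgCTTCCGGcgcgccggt
Ndufb4: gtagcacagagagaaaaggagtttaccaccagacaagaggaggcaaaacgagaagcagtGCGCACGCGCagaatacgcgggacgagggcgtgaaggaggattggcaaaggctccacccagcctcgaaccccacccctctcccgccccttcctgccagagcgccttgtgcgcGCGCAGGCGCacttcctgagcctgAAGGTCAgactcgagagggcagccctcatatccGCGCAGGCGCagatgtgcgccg
Atp5g1: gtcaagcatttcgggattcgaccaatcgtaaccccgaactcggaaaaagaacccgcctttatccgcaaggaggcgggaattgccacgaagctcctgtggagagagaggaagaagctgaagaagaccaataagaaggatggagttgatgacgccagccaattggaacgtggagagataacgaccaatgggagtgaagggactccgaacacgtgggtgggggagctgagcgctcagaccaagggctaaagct
Atp5g2: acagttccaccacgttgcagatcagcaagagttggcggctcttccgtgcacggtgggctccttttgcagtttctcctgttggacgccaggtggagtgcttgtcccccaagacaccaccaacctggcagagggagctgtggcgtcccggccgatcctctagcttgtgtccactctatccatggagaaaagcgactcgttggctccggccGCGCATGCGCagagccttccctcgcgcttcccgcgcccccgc
Atp5g3: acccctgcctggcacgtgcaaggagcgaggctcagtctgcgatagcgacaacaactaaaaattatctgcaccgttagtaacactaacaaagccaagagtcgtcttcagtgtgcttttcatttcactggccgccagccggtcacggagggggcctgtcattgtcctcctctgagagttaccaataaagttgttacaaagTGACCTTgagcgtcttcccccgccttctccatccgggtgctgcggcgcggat

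NRF1, GABPA, the ERR receptors and YY1 are transcription factors known to act on nuclear genes for mitochondrial proteins. The NRF1 core was present in 14 of the 71 windows of subunit genes (19.7%), against 3.74% of all 32851 windows. For the ETS motif the shares were 16.9% (12 windows) and 6.91%, for the ERR site 7.04% (5 windows) and 4.08%, and for the YY1 motif 4.23% (3 windows) and 1.12%. Windows of subunit genes also had more G and C, with a median of 56.4% against 52.4%, and the shares were not adjusted for this. Any of the 4 motifs was present in 38.0% of windows of subunit genes (27 windows) and 14.6% of all windows. In the windows shown, motif matches did not sort the genes by their pattern across libraries. Uqcrc1 and Cox5a, which had the largest mean deviation of those 3 libraries from their groups, held none of the 4 motifs, Sdha held 3 NRF1 cores, and Ndufb4, which did not follow the pattern, also held 3. Among the c subunit genes, Atp5g1 held no match, Atp5g2 held 1 NRF1 core and Atp5g3 held 1 ERR site. Matches of different motifs were counted separately, also where they overlapped, and a match describes the letters in the window, not binding.

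Across the 12 libraries, the 81 tested genes had mean levels of 17.3 to 2096 FPKM, with a median of 263 FPKM. The median gene stood at 220 FPKM in complex I, 93.1 in complex II, 418 in complex III, 459 in complex IV and 374 in complex V. The lowest gene of complex II was Sdha, the flavoprotein that oxidises succinate, and the lowest of complex III was Uqcrfs1, the Rieske iron-sulfur protein. The highest gene was Ndufa3 in complex I, Sdhc in complex II, Uqcrh in complex III, Cox6a1 in complex IV and Atp5l in complex V.

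Taken as a share of all counts, the 82 genes held 1.12%, 2.88% and 1.45% in LPS+bLF replicates 1 to 3, 1.45%, 1.09% and 1.02% in LPS, 1.71%, 1.197% and 1.09% in bLF and 2.25%, 1.04% and 1.06% in control. The groups overlapped, and the highest share in LPS+bLF, bLF and control came from a single library each. Group means were 1.82 ± 0.937% in LPS+bLF, 1.19 ± 0.228% in LPS, 1.33 ± 0.330% in bLF and 1.45 ± 0.692% in control (SD, n = 3 each). Each difference between group means was smaller than the larger SD of the pair. In control replicate 2, the club cell secretory gene Scgb1a1 took 23.8% of all counts, against 1.68 to 7.43% in the other libraries.

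**Figure D1:**
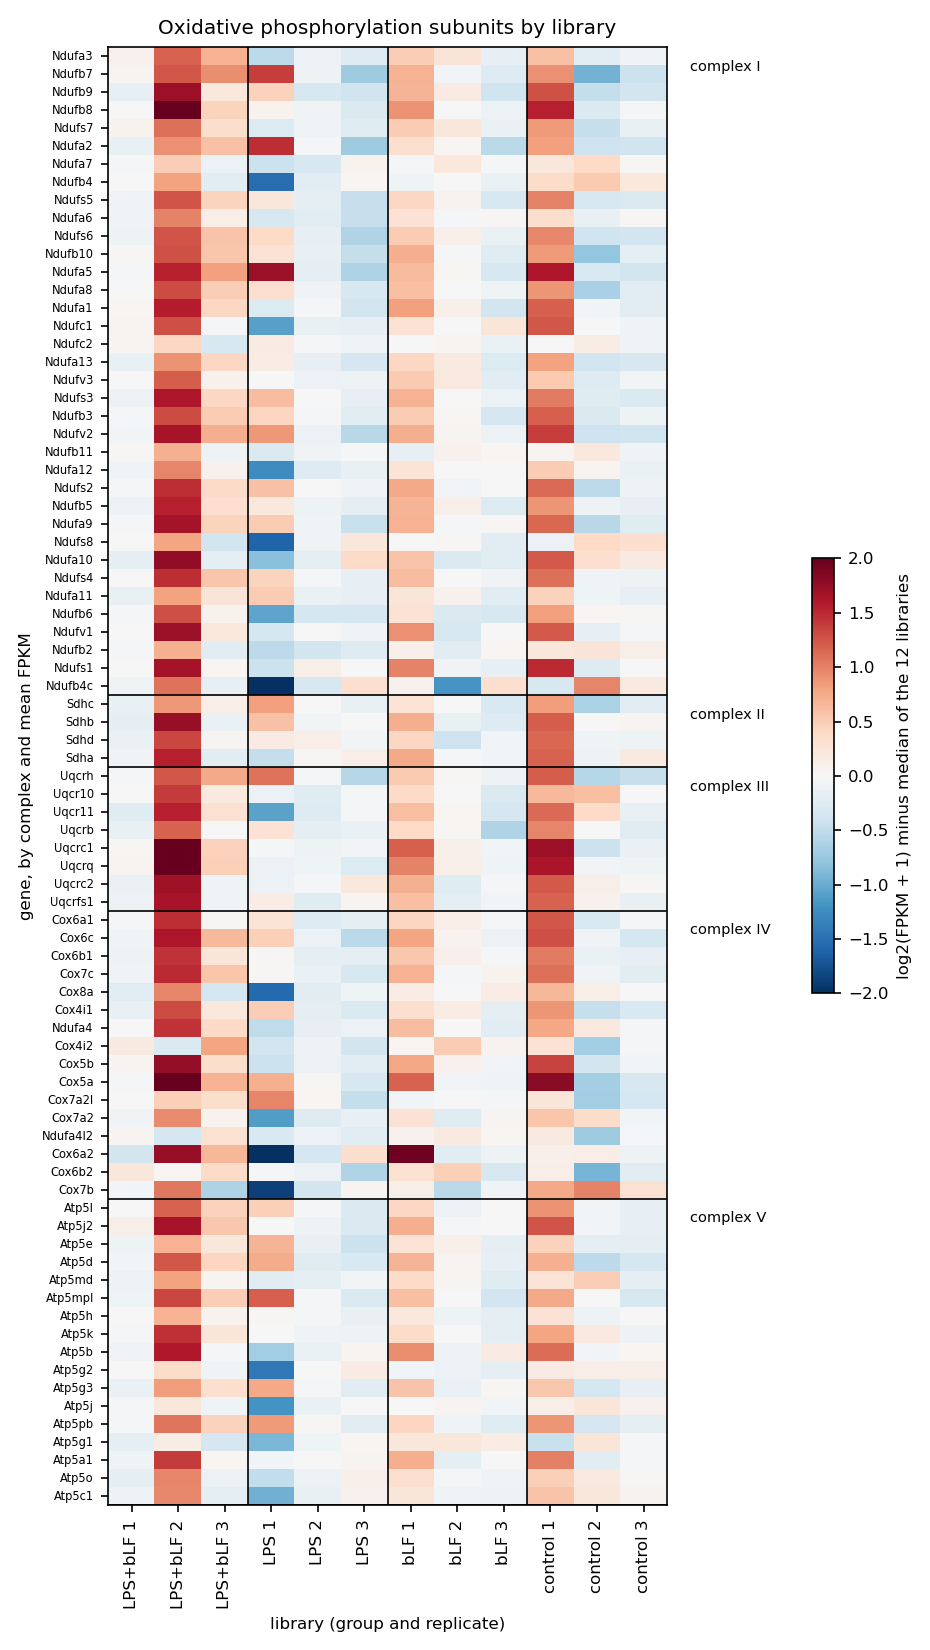
Heatmap of the 81 tested subunit genes (vertical axis, by complex and mean FPKM) in the 12 libraries (horizontal axis, by group and replicate). Colour gives log2(FPKM + 1) minus the median of the 12 libraries for that gene. Nearly all genes are red in LPS+bLF replicate 2, most are in bLF replicate 1 and control replicate 1, and LPS replicate 1 mixes red and blue.

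The main pattern was a high level of most subunit genes together in single libraries. LPS+bLF replicate 2 held the highest FPKM of the 12 libraries for 71 of the 81 genes, where it did so for 11.1% of all tested genes. Comparisons of libraries within a group used counts scaled by TMM (trimmed mean of M values, which sets the bulk of genes level between libraries) unless FPKM is named. On that scale LPS+bLF replicate 2, bLF replicate 1 and control replicate 1 were all the highest library of their group for 61 of 81 genes (75.3%), against 12.7% of all tested genes. In FPKM they were so for 64 genes (79.0%), against 13.6%. By complex, after TMM scaling, these were 29 of 36 genes of complex I, 4 of 4 of complex II, 7 of 8 of complex III, 8 of 16 of complex IV and 13 of 17 of complex V. The 3 genes that joined in FPKM alone were Uqcr10, Cox7a2 and Atp5g2. These counts describe libraries that were picked because they stood apart, so no test is attached to them.

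Set against the mean of the other libraries of its group, the median gene was 2.29-fold higher in LPS+bLF replicate 2, 1.45-fold higher in bLF replicate 1 and 2.0-fold higher in control replicate 1. In LPS+bLF replicate 2 the median by complex was 2.19-fold for I, 3.09-fold for II, 3.27-fold for III, 2.53-fold for IV and 2.04-fold for V. Complexes II and III stood highest there and complex V lowest, though differences between complexes were not tested. In control replicate 1 the order differed, with 2.1-fold for I, 2.11-fold for II, 2.07-fold for III, 1.51-fold for IV and 1.54-fold for V. The spread within groups was accordingly wide: the median SD of log2 CPM, the count scaled to the library, was 0.591 for subunit genes against 0.312 for all tested genes.

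**Figure D2:**
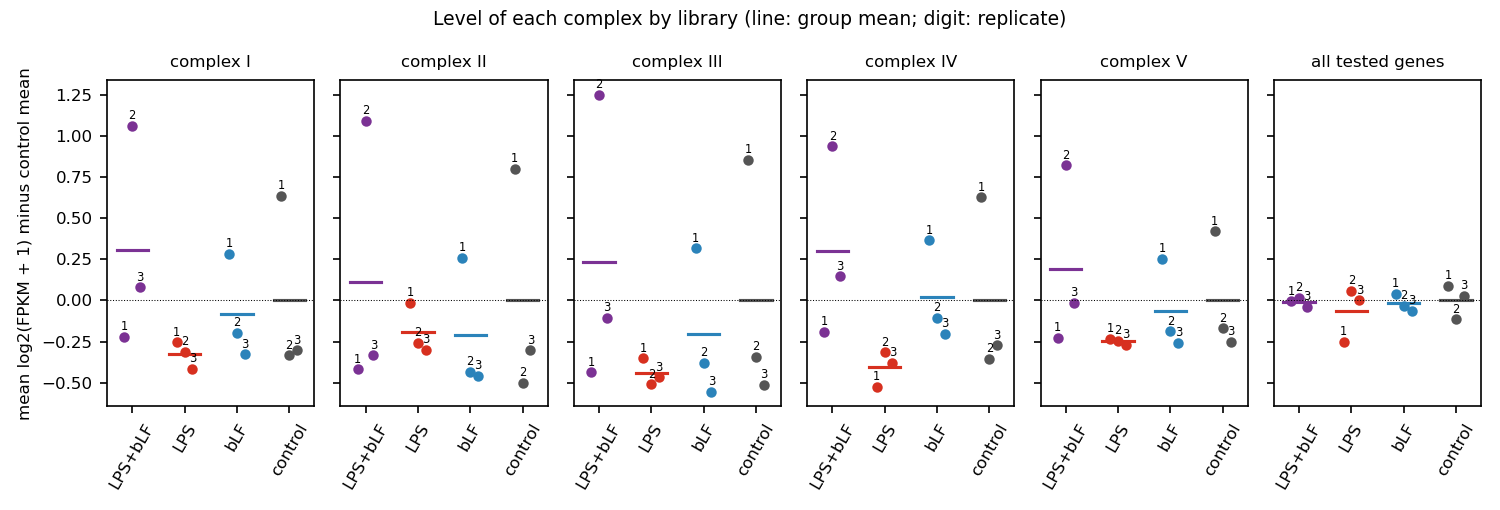
Mean log2(FPKM + 1) of each complex in each library, minus the control mean (vertical axis), by group (horizontal axis); points are libraries with their replicate number, lines are group means, and the last panel shows all tested genes. In all 5 complexes LPS+bLF replicate 2, bLF replicate 1 and control replicate 1 are the highest points of their groups. The mean over all tested genes lies between −0.25 (LPS replicate 1) and 0.09 (control replicate 1). In LPS replicate 1 the mean over the subunit genes is −0.30, close to that of all tested genes.

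Genes known to mark brown fat and heart muscle were high in the same 3 libraries. Ucp1, the uncoupling protein of brown fat, stood at 0.0800, 158 and 0.200 in LPS+bLF, 0.0400, 0 and 0.0800 in LPS, 57.4, 0 and 0 in bLF, 88.1, 0 and 0.0400 in control FPKM. Cox8b, the muscle and brown fat isoform that the gene set leaves out, stood at 76.7, 4425 and 400.0 in LPS+bLF, 21.8, 59.8 and 82.7 in LPS, 1493, 109.8 and 86.8 in bLF, 2853, 145 and 71.7 in control FPKM. Cox7a1, also left out, stood at 33.4, 966 and 116 in LPS+bLF, 4.92, 31.3 and 43.1 in LPS, 546, 33.3 and 42.6 in bLF, 592, 70.8 and 26.4 in control FPKM. For all of these, LPS+bLF replicate 2, bLF replicate 1 and control replicate 1 were above every other library. Adipoq, an adipocyte hormone, had 0, 239 and 0 in LPS+bLF, 0, 0 and 0.170 in LPS, 65.3, 0.400 and 0.170 in bLF, 119.5, 0.290 and 4.99 in control FPKM, and Myl7, an atrial myosin light chain, had 40.8, 1582 and 1.13 in LPS+bLF, 0.970, 29.5 and 162 in LPS, 1832, 31.1 and 128 in bLF, 400.1, 295 and 4.11 in control FPKM. Adipoq followed the same 3 libraries, whereas Myl7 was also high in control replicate 2.

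Over the whole brown fat list of 12 genes, 9 of 10 tested genes were highest of their group in each of the 3 libraries. Of all tested genes, 34.5% were so in LPS+bLF replicate 2, 34.8% in bLF replicate 1 and 40.5% in control replicate 1. These libraries were set apart for their high brown fat genes, so this count follows from the choice and is no separate support. The summed level of the list was 126 to 5904 in LPS+bLF, 39.5 to 138 in LPS, 147 to 2205 in bLF, 115 to 3813 in control FPKM. Most of the upper ends came from Cox8b, at 4425 FPKM in LPS+bLF replicate 2, 1493 in bLF replicate 1 and 2853 in control replicate 1. Cox7a1 added 966, 546 and 592 FPKM in the same libraries. Both isoforms are also known from muscle, so the sums do not mark brown fat alone. The 12 genes of the white fat list were all highest in those libraries, with summed levels of 117 to 24664 in LPS+bLF, 115 to 348 in LPS, 142 to 6542 in bLF, 106 to 12255 in control FPKM. For the 14 tested heart muscle genes the counts were 12 in LPS+bLF replicate 2, 14 in bLF replicate 1 and 11 in control replicate 1, with summed levels of 224 to 5611 in LPS+bLF, 113 to 555 in LPS, 204 to 6500.1 in bLF, 109 to 1349 in control FPKM. No gene of the brown fat, white fat or heart list was at 0 in the 3 libraries, and Ucp1 was at or near 0 in the other 9. This was not particular to the 3 libraries for every list. The heart list also had no gene at 0 in control replicate 2 and LPS+bLF replicate 3, and the white fat list none in control replicate 3. The heart sum was 796 FPKM in control replicate 2 and 555 in LPS replicate 3. The part of these tissues in the subunit levels was not tested.

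LPS+bLF replicate 3 held 807 FPKM of Ckm, the muscle creatine kinase, and a summed skeletal muscle level of 7202 FPKM, far above all other libraries. In that library the median subunit gene was 0.789 times the mean of the other LPS+bLF libraries, a mean that includes replicate 2. Set against LPS+bLF replicate 1 alone it was 1.30 times as high, with 69 of 81 genes higher and 12 lower. LPS+bLF replicate 3 was the highest of its group for 3 genes, Cox4i2, Cox6b2 and Ndufa4l2, and the lowest for 12.

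**Figure D3:**
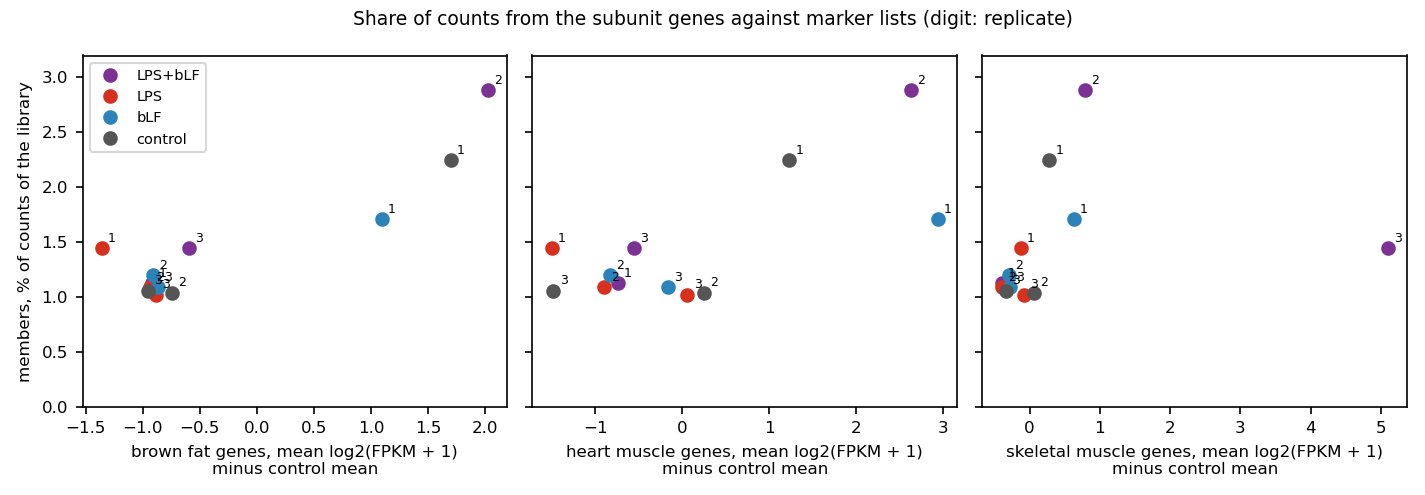
Share of counts from the 82 subunit genes (vertical axis, percent of all counts of the library) against the mean log2(FPKM + 1) of the brown fat, heart muscle and skeletal muscle lists, minus the control mean (horizontal axes); points are libraries, with the replicate number. The 3 libraries high in brown fat genes have shares of 2.88%, 1.71% and 2.25%, and LPS+bLF replicate 3, far right for skeletal muscle, has 1.45%.

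Uqcrc1 and Cox5a had the largest mean deviation of the 3 libraries from their groups. Uqcrc1, a core protein of complex III, had 146, 633 and 200.1 in LPS+bLF, 143, 134 and 139 in LPS, 333, 155 and 139 in bLF, 474, 107 and 131 in control FPKM. Cox5a, a general subunit of complex IV, had 254, 1195 and 418 in LPS+bLF, 422, 263 and 206 in LPS, 584, 250.1 and 243 in bLF, 902, 160.4 and 208 in control FPKM. In both genes the 3 named libraries lay above all 9 others, and Cox5a was also high in LPS replicate 1 and LPS+bLF replicate 3. Relative to the other libraries of its group, Uqcrc1 was 3.87-fold higher in LPS+bLF replicate 2, 2.19-fold in bLF replicate 1 and 3.63-fold in control replicate 1. For Cox5a these values were 3.83-fold, 2.29-fold and 4.47-fold in the same libraries. Ndufs1, the iron-sulfur subunit of the peripheral arm of complex I, had 21.7, 70.2 and 22.2 in LPS+bLF, 15.8, 23.5 and 21.4 in LPS, 44.02, 20.5 and 19.2 in bLF, 62.4, 17.8 and 21.5 in control FPKM and also placed the 3 libraries above the other 9.

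In complex II, all 4 genes took part. Sdha had 29.6, 94.3 and 26.5 in LPS+bLF, 22.3, 31.9 and 34.2 in LPS, 53.5, 30.7 and 30.02 in bLF, 71.7, 28.9 and 36.1 in control FPKM. Sdhb, the iron-sulfur subunit, had 92.8, 356 and 96.1 in LPS+bLF, 158, 101 and 106 in LPS, 175, 94.9 and 87.5 in bLF, 243, 104 and 109 in control FPKM. Sdhc, a membrane anchor, had 157, 316 and 189.6 in LPS+bLF, 306, 174 and 157 in LPS, 211, 173 and 139.9 in bLF, 309, 111 and 150.2 in control FPKM. Sdha and Sdhb were highest in the 3 libraries of all 12, whereas Sdhc was nearly as high in LPS replicate 1 as in the highest library.

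In complex III, 7 of 8 genes were highest of their group in the 3 libraries after TMM scaling, and all 8 in FPKM. Uqcrfs1 had 45.5, 158 and 46.5 in LPS+bLF, 54.9, 41.5 and 51.2 in LPS, 75.6, 42.9 and 47.6 in bLF, 113, 52.5 and 44.4 in control FPKM, with LPS+bLF replicate 2 and control replicate 1 highest. Uqcrh, the acidic hinge protein, had 688, 1654 and 1183 in LPS+bLF, 1481, 686 and 470.2 in LPS, 1007, 709 and 651 in bLF, 1622, 470.2 and 509 in control FPKM and was also high in LPS replicate 1. Uqcr11 had 500.1, 1743 and 736 in LPS+bLF, 281, 496 and 575 in LPS, 899, 612 and 469.7 in bLF, 1301, 778 and 533 in control FPKM and was lowest in LPS replicate 1. Uqcr10, another small subunit, had 619, 1641 and 709 in LPS+bLF, 571, 527 and 602 in LPS, 813, 617 and 509 in bLF, 973, 942 and 624 in control FPKM, and control replicate 2 was close to control replicate 1. After TMM scaling control replicate 2 was the higher of them for Uqcr10.

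In complex V, the catalytic beta subunit Atp5b had 273, 874 and 279.9 in LPS+bLF, 178, 262 and 298 in LPS, 546, 268 and 322 in bLF, 622, 275 and 294 in control FPKM. The gamma subunit Atp5c1, the rotor shaft, had 121, 259 and 115 in LPS+bLF, 67.2, 118 and 141 in LPS, 156, 125 and 123 in bLF, 196, 154 and 139 in control FPKM. Atp5l, the g subunit in the membrane, had 1354, 3083 and 1861 in LPS+bLF, 1884, 1337 and 1114 in LPS, 1805, 1253 and 1358 in bLF, 2520.3, 1306 and 1206 in control FPKM. All of these were highest of their groups in the 3 libraries, whereas LPS replicate 1 was the lowest LPS library for Atp5b and Atp5c1 and the highest for Atp5l. Atp5j, coupling factor 6 of the peripheral stalk, had 238, 284 and 233 in LPS+bLF, 106, 223 and 246 in LPS, 242, 253 and 235 in bLF, 263, 289 and 259.9 in control FPKM, with a narrow range apart from LPS replicate 1.

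The c subunit genes split. Atp5g1 had 171, 215 and 153 in LPS+bLF, 102, 183 and 198 in LPS, 226, 225 and 216 in bLF, 141, 230.3 and 189 in control FPKM. Atp5g2 had 369, 479 and 349 in LPS+bLF, 137, 375 and 416 in LPS, 360.4, 345 and 325 in bLF, 417, 410.2 and 406 in control FPKM. Atp5g3 had 235, 460.2 and 325 in LPS+bLF, 435, 251 and 221 in LPS, 381, 235 and 262 in bLF, 372, 199.9 and 229 in control FPKM. Atp5g3 was highest in the 3 libraries and in LPS replicate 1, Atp5g2 was within a narrow range apart from a low LPS replicate 1, and Atp5g1 was lowest of its group in control replicate 1. Relative to the other control libraries, control replicate 1 was at 0.70 on the log2 scale for Atp5g3, −0.10 for Atp5g2 and −0.72 for Atp5g1. Atp5g2 exceeded Atp5g3 in 10 of 12 libraries, but not in bLF replicate 1 or LPS replicate 1.

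After TMM scaling, complex IV had the most genes that were not highest of their group in all 3 libraries: its tissue-restricted isoforms Cox4i2, Cox6a2, Cox6b2 and Ndufa4l2, and Cox7a2, Cox7a2l, Cox7b and Cox8a. In FPKM Cox7a2 was highest of its group in all 3. Cox4i2, the isoform of subunit 4 known from lung, had 524, 377 and 798 in LPS+bLF, 359, 432 and 359 in LPS, 474, 658 and 484 in bLF, 563, 288 and 451 in control FPKM. Its general counterpart Cox4i1 had 783, 2139.8 and 1005 in LPS+bLF, 1217, 761 and 711 in LPS, 1101, 964 and 764 in bLF, 1609, 629.8 and 699.7 in control FPKM. Cox4i1 was highest of its group in the 3 libraries, whereas Cox4i2 was lowest of its group in LPS+bLF replicate 2 and bLF replicate 1. In control replicate 1 Cox4i2 was highest of its group too. Cox4i2 thus stood at 0.176 times the level of Cox4i1 in LPS+bLF replicate 2, the smallest ratio of the 12 libraries, and at 0.794 times in LPS+bLF replicate 3, the largest.

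Cox6b2, known from testis, had 79.7, 69.5 and 88.6 in LPS+bLF, 65.8, 62.3 and 44.4 in LPS, 84.01, 94.7 and 54.02 in bLF, 74.3, 34.9 and 58.1 in control FPKM. Its counterpart Cox6b1 had 1281, 3745 and 1629.8 in LPS+bLF, 1400.5, 1199.7 and 1198 in LPS, 1994, 1480.2 and 1357 in bLF, 2843, 1259.6 and 1236 in control FPKM. Ndufa4l2, known as a hypoxia-induced gene, had 93.9, 71.8 and 113 in LPS+bLF, 73.7, 83.6 and 78.4 in LPS, 96.8, 103 and 92.9 in bLF, 103, 54.9 and 88.8 in control FPKM. Cox6b2 and Ndufa4l2 were lowest of their group in LPS+bLF replicate 2, where Cox6b1 was at its highest level. Both were highest of their group in control replicate 1. Ndufa4 had 646, 1774 and 859 in LPS+bLF, 456, 579.8 and 597 in LPS, 994, 651 and 561 in bLF, 1104, 745 and 633 in control FPKM and followed the 3 libraries.

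Cox6a2, the heart and skeletal muscle isoform of subunit 6a, had 46.6, 205 and 96.5 in LPS+bLF, 7.65, 47.00 and 76.4 in LPS, 235, 52.1 and 55.95 in bLF, 64.97, 66.5 and 55.96 in control FPKM. The general isoform Cox6a1 had 1602, 4595 and 1678 in LPS+bLF, 2001, 1376 and 1440.4 in LPS, 2213, 1811 and 1615 in bLF, 3883, 1335 and 1606 in control FPKM. Cox6a2 was high in bLF replicate 1 and LPS+bLF replicate 2, which were also the 2 libraries with the highest heart muscle sums, and was not high in control replicate 1. Cox8a, the general form of subunit 8, had 1089, 2494 and 987 in LPS+bLF, 427, 1084 and 1187 in LPS, 1394, 1269.6 and 1403 in bLF, 1996, 1364 and 1254 in control FPKM, low in LPS replicate 1.

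**Figure D4:**
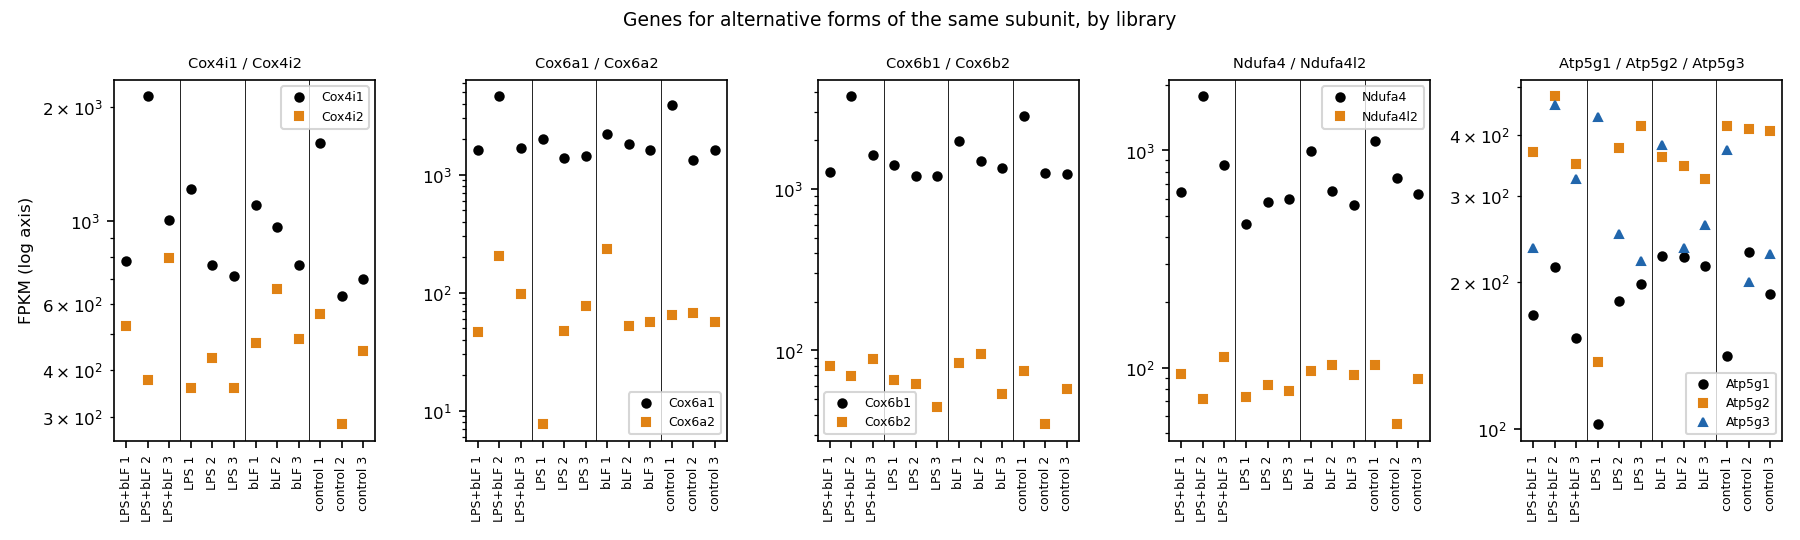
FPKM (log axis) of genes for alternative forms of the same subunit in the 12 libraries (horizontal axis, by group and replicate). Cox4i1, Cox6a1, Cox6b1 and Ndufa4 peak in LPS+bLF replicate 2 while Cox4i2, Cox6b2 and Ndufa4l2 do not; Cox6a2 peaks in bLF replicate 1 at 235 FPKM, and Atp5g1 is lowest in LPS replicate 1 at 102 FPKM.

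LPS replicate 1 differed from the other LPS libraries in another way. After TMM scaling it was the highest LPS library for 56 of 81 genes and the lowest for 19, against 42.5% and 48.6% of all tested genes. In FPKM it was the highest for 44 and the lowest for 32, against 29.2% and 60.2%. After TMM scaling, more than 1 log2 unit above the mean of the other LPS libraries stood 19 genes (23.5%, against 11.6% of all tested genes), and more than 1 below stood 6 (7.41%, against 16.5%). Complexes I, IV and V held genes of both kinds, whereas complexes II and III held genes of the higher kind only. Ndufa2, an accessory subunit of the peripheral arm, had 332, 694 and 553 in LPS+bLF, 1030.2, 358 and 225 in LPS, 464, 381 and 254 in bLF, 651, 278 and 279.9 in control FPKM. Ndufb7, a subunit of the membrane arm, had 1103, 2502 and 2015 in LPS+bLF, 2782, 989 and 646 in LPS, 1724, 1021 and 887 in bLF, 1996, 552 and 787 in control FPKM. Cox7a2l had 297, 410.1 and 379 in LPS+bLF, 583, 304 and 213 in LPS, 283, 294 and 292 in bLF, 350.1, 181 and 232 in control FPKM. Each was highest of the 12 libraries in LPS replicate 1.

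On the low side, Cox7b, a small subunit of complex IV, had 45.6, 99.9 and 30.9 in LPS+bLF, 12.3, 36.6 and 49.7 in LPS, 51.5, 32.4 and 45.4 in bLF, 80.8, 95.7 and 58.9 in control FPKM. Ndufb4, an accessory subunit of the membrane arm of complex I, had 379, 669 and 327 in LPS+bLF, 132, 325 and 393 in LPS, 361, 385 and 348 in bLF, 494, 547 and 441 in control FPKM. Its copy Ndufb4c had 14.98, 35.4 and 14.2 in LPS+bLF, 1.61, 12.7 and 20.6 in LPS, 17.2, 6.54 and 20.6 in bLF, 12.7, 32.4 and 18.5 in control FPKM. All 3 were lowest of the 12 libraries in LPS replicate 1. In FPKM that library was lowest of the 12 for 27 of the 81 tested genes, against 44.1% of all tested genes. It was highest of the 12 for 4, against 18.9%. Counts of Ndufb4 and Ndufb4c were not whole in any of the 12 libraries, so reads may have been divided between the copies and both levels are uncertain. Ndufa7, an accessory subunit of the peripheral arm, had 409, 594 and 389 in LPS+bLF, 312, 337 and 442 in LPS, 414, 489 and 411 in bLF, 491, 556 and 428 in control FPKM and varied little.

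The order of the genes in LPS replicate 1 was not that of LPS+bLF replicate 2. Across the 81 genes, the deviation from the other libraries of the group correlated between LPS+bLF replicate 2 and bLF replicate 1 (Spearman rho 0.75), between bLF replicate 1 and control replicate 1 (0.69) and between LPS+bLF replicate 2 and control replicate 1 (0.52). Between LPS+bLF replicate 2 and LPS replicate 1 it was −0.09, between LPS replicate 1 and bLF replicate 1 it was 0.24, and between LPS replicate 1 and control replicate 1 it was 0.57, higher than between LPS+bLF replicate 2 and control replicate 1. These values are descriptions across genes, which share libraries and are not independent. In LPS replicate 1 the neutrophil genes summed to 1626 FPKM, against 278 and 327 FPKM in LPS replicates 2 and 3. Their sums were at most 393 FPKM in LPS+bLF, 520 in bLF and 627 in control. The part of these genes in the split was not tested.

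The first comparison asked how LPS changed the subunits relative to control. In the edgeR fit 18 subunit genes were higher and 63 lower in LPS. Their median log2 fold change was −0.28, against −0.04 for all tested genes. By complex the medians were −0.21 for I, −0.23 for II, −0.46 for III, −0.33 for IV and −0.20 for V. No gene was called: of 13735 genes tested with edgeR, 0.0% passed an adjusted p of 0.05, and the smallest adjusted p of a subunit gene was 0.655. DESeq2 called 0 of the 81 genes against 1.05% of all genes, and limma on log2(FPKM + 1) called 0 against 0.0146%.

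At an unadjusted p under 0.05 there were 4 subunit genes, all lower in LPS (4.94%, against 7.14% of all genes). Cox7a2, the general form of subunit 7a, had 160.4, 327 and 178 in LPS+bLF, 77.1, 141 and 152 in LPS, 206, 143 and 175 in bLF, 249.8, 218 and 163 in control FPKM. Ndufb6, an accessory subunit of the membrane arm, had 46.6, 116 and 49.7 in LPS+bLF, 22.3, 37.01 and 37.1 in LPS, 57.9, 38.7 and 37.7 in bLF, 84.2, 48.4 and 47.9 in control FPKM. In both, every LPS library lay below every control library, and LPS replicate 1 was the lowest. The 4 genes were Cox7b (log2 fold change −1.26 ± 0.49 (SE), adjusted p = 0.655), Cox7a2 (log2 fold change −0.73 ± 0.31 (SE), adjusted p = 0.675), Ndufb4 (log2 fold change −0.76 ± 0.33 (SE), adjusted p = 0.684) and Ndufb6 (log2 fold change −0.84 ± 0.37 (SE), adjusted p = 0.684). After TMM scaling, LPS and control did not overlap for 8 subunit genes (9.88%, against 9.46% of all genes), all lower in LPS: Ndufb2, Ndufb4, Ndufb6, Ndufc1, Cox7a2, Cox7b, Cox8a and Ndufa4. This share was close to that of all genes. On the higher side, the smallest p belonged to Cox7a2l (log2 fold change 0.68 ± 0.39 (SE), adjusted p = 0.685), Ndufa2 (log2 fold change 0.65 ± 0.60 (SE), adjusted p = 0.706) and Ndufb7 (log2 fold change 0.67 ± 0.64 (SE), adjusted p = 0.711).

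The second comparison asked how lactoferrin with LPS differed from LPS alone. Of the 81 genes, 79 were higher in LPS+bLF and 2 lower. The median log2 fold change was 0.64, against −0.02 for all tested genes. No gene of the 13735 was called by edgeR (0.0%), and the smallest adjusted p of a subunit gene was 0.689. DESeq2 called 0 subunit genes against 0.0516% of all genes and limma 0 against 0.0%. The medians by complex were 0.68 for I, 0.52 for II, 0.75 for III, 0.79 for IV and 0.41 for V.

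At an unadjusted p under 0.05 there were 11 subunit genes, all higher in LPS+bLF (13.6%, against 6.92% of all genes): 6 of complex I, 2 of complex III and 3 of complex IV. Ndufa3, a membrane arm subunit and the most abundant gene of complex I, had 1318, 2821 and 2005 in LPS+bLF, 861, 1147 and 1044 in LPS, 1739, 1491 and 1103 in bLF, 1858, 1073 and 1171 in control FPKM. Ndufa12, an accessory subunit of the peripheral arm, had 149, 314 and 169 in LPS+bLF, 65.7, 132 and 143 in LPS, 192, 158 and 159 in bLF, 225, 165 and 145 in control FPKM. In both genes every LPS+bLF library was above every LPS library. Ndufb6 (log2 fold change 1.15 ± 0.37 (SE), adjusted p = 0.689), Ndufa3 (log2 fold change 0.92 ± 0.30 (SE), adjusted p = 0.689), Ndufa12 (log2 fold change 0.92 ± 0.31 (SE), adjusted p = 0.689) and Cox7a2 (log2 fold change 0.86 ± 0.31 (SE), adjusted p = 0.689) had the smallest p. The groups did not overlap for 10 subunit genes (12.3%, against 10.2% of all genes), all higher in LPS+bLF. The genes that were lower were Ndufa2 (log2 fold change −0.18 ± 0.59 (SE), adjusted p = 0.968) and Cox7a2l (log2 fold change −0.10 ± 0.39 (SE), adjusted p = 0.974).

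The size of this difference rested on LPS+bLF replicate 2. Without LPS+bLF replicate 2 the median log2 fold change was 0.10, and without all 3 libraries high in brown fat genes it was 0.10, with 51 genes higher and 30 lower. At an unadjusted p under 0.05 there were then 3 subunit genes (3.7%, against 2.79% of all genes), with 0.0% of genes called. Complexes II and V then had medians of −0.28 and −0.01. Without these 3 libraries and LPS replicate 1, an alternative chosen after seeing the data, which leaves 2 libraries a group, 68 genes were higher and 13 lower in LPS+bLF, with a median of 0.34. In that fit 28 subunit genes had an unadjusted p under 0.05, all higher (34.6%, against 9.69% of all genes), and 0.0146% of genes were called, none of them a subunit gene. The smallest p belonged to Ndufb7 (log2 fold change 1.02 ± 0.31 (SE), adjusted p = 0.504). The remaining LPS+bLF libraries include replicate 3, with its skeletal muscle genes, whose part was not tested.

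For LPS versus control the median changed sign without the 3 libraries, to 0.13 with 50 genes higher and 31 lower in LPS, since control replicate 1 was left out. At an unadjusted p under 0.05 there were then 5 subunit genes, all lower in LPS (6.17%, against 6.04% of all genes), with 0.0% of genes called. Without LPS replicate 1 as well, the median was −0.11, with 23 genes higher and 58 lower, 4 genes under an unadjusted p of 0.05 (4.94%, against 7.78% of all genes) and 0.138% of genes called, none a subunit gene. Cox7b (log2 fold change −0.94 ± 0.32 (SE), adjusted p = 0.473), Ndufb2 (log2 fold change −0.59 ± 0.18 (SE), adjusted p = 0.391), Ndufb4 (log2 fold change −0.53 ± 0.20 (SE), adjusted p = 0.545) and Ndufb6 (log2 fold change −0.45 ± 0.16 (SE), adjusted p = 0.512) were those 4, and each was lower in LPS with all 12 libraries too.

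**Figure D5:**
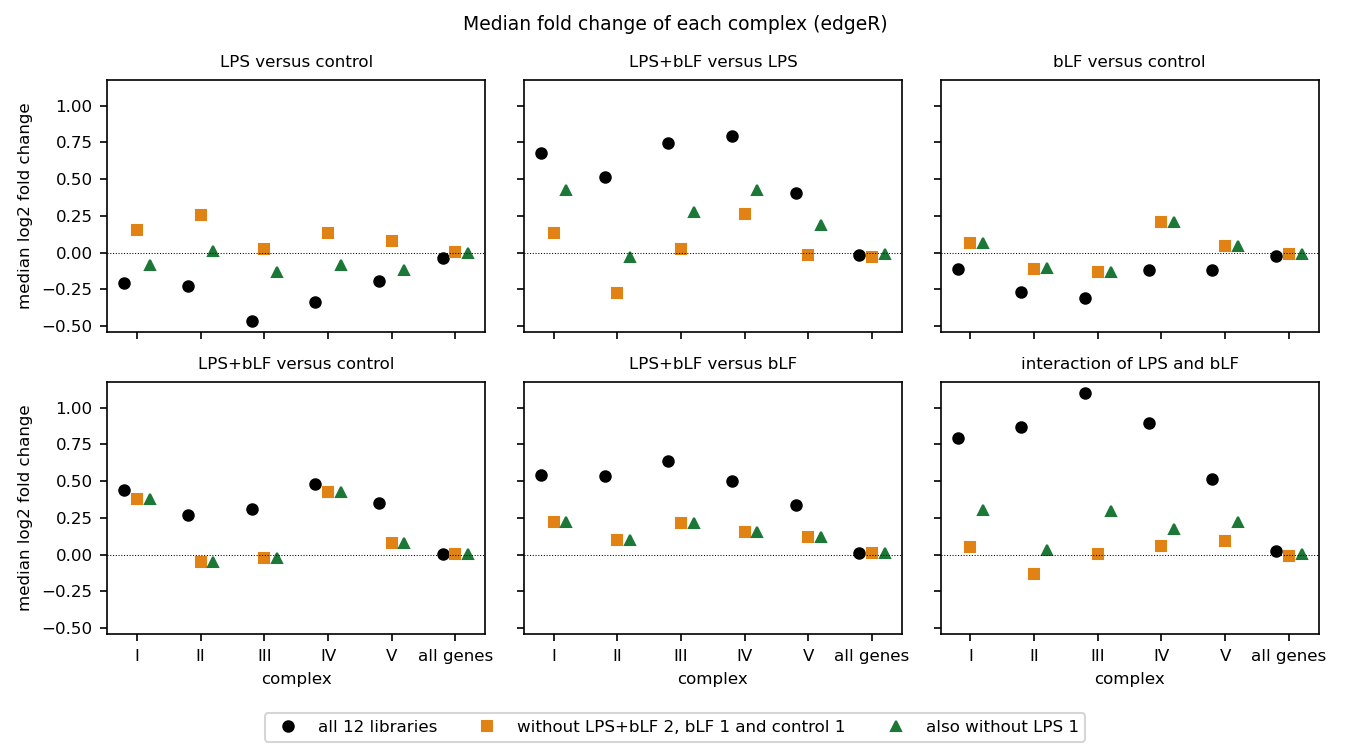
Median log2 fold change (vertical axis) of each complex and of all tested genes (horizontal axis) in the 6 comparisons, from edgeR. Circles use all 12 libraries, squares leave out LPS+bLF replicate 2, bLF replicate 1 and control replicate 1, and triangles leave out LPS replicate 1 as well. For LPS+bLF versus LPS the complexes lie between 0.41 and 0.79 with all libraries and between −0.28 and 0.27 without the 3.

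Lactoferrin alone was set against control. Of the 81 genes 18 were higher and 63 lower in bLF; their median log2 fold change was −0.13. No subunit gene passed an adjusted p of 0.05 with edgeR (0.0% of all genes did), DESeq2 (0.00737%) or limma (0.0%), and none an unadjusted p of 0.05, where 1.38% of all genes did. The groups did not overlap for 3 subunit genes (3.7%, against 8.91% of all genes), all lower in bLF: Ndufb4 (log2 fold change −0.43 ± 0.33 (SE), adjusted p = 1), Cox7b (log2 fold change −0.86 ± 0.49 (SE), adjusted p = 1) and Atp5g2 (log2 fold change −0.24 ± 0.27 (SE), adjusted p = 1). The smallest p on the higher side belonged to the alternative isoforms Cox6b2 (log2 fold change 0.54 ± 0.28 (SE), adjusted p = 1), Ndufa4l2 (log2 fold change 0.29 ± 0.20 (SE), adjusted p = 1) and Cox4i2 (log2 fold change 0.35 ± 0.28 (SE), adjusted p = 1). Without the 3 libraries the median was 0.06, with 51 genes higher and 30 lower.

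LPS+bLF was also set against control and against bLF. Against control, 76 genes were higher and 5 lower in LPS+bLF, with a median of 0.40, and against bLF 78 were higher and 3 lower, with a median of 0.53. No subunit gene was called against control by edgeR (0.0% of all genes), DESeq2 (0.119%) or limma (0.0%), nor against bLF by edgeR (0.0%), DESeq2 (0.0147%) or limma (0.0%). At an unadjusted p under 0.05 there was 1 subunit gene against control, Ndufa3 (log2 fold change 0.66 ± 0.30 (SE), adjusted p = 0.832), where 4.81% of all genes passed, and 0 against bLF, where 2.66% did. The groups did not overlap for 1 subunit gene in each: Cox6b2 against control (log2 fold change 0.53 ± 0.28 (SE), adjusted p = 0.832), where 12.4% of all genes did not overlap, and Atp5g2 against bLF (log2 fold change 0.25 ± 0.27 (SE), adjusted p = 1.00), where 12.6% did not. Both hold after TMM scaling, whereas in FPKM the groups overlapped for both genes. Without LPS+bLF replicate 2 the medians were −0.14 against control and −0.05 against bLF.

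The interaction asks whether lactoferrin acted differently with LPS than without it, as the difference of LPS+bLF over LPS and bLF over control. Its median over the subunit genes was 0.80, with 74 genes above 0 and 7 below, and the medians by complex were 0.79 for I, 0.87 for II, 1.10 for III, 0.90 for IV and 0.52 for V. No subunit gene was called by edgeR (0.0% of all genes), DESeq2 (0.00737%) or limma (0.0%). At an unadjusted p under 0.05 there were 7 subunit genes, all above 0 (8.64%, against 2.8% of all genes), led by Ndufb6 (log2 fold change 1.54 ± 0.52 (SE), adjusted p = 1.00), Cox7a2 (log2 fold change 1.12 ± 0.43 (SE), adjusted p = 1.00) and Cox7b (log2 fold change 1.75 ± 0.69 (SE), adjusted p = 1.00). Without the 3 libraries the median was 0.02. The comparisons share libraries: control enters 4 of the 6 and LPS+bLF also 4, so their values stand side by side and are not independent.

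Other energy genes were high in the same libraries. Enzymes of the tricarboxylic acid cycle, which makes NADH and succinate, were highest of their group for 16 of 16 genes in LPS+bLF replicate 2, 16 in bLF replicate 1 and 14 in control replicate 1, with median ratios to the other libraries of 3.61, 1.87 and 2.51. Fatty acid oxidation genes were highest for 17, 16 and 17 of 18, with median ratios of 3.92, 2.06 and 2.95. Both lists swung more than the subunit genes. The 46 assembly factors of the complexes had median ratios of 1.45, 1.09 and 1.11, and the 78 mitochondrial ribosomal proteins 1.39, 1.06 and 1.15. These swung less. No gene of these lists was called by edgeR in any of the 6 comparisons, in each of which 0.0% of all tested genes were called.

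In LPS+bLF versus LPS, the median log2 fold change was 0.98 for the tricarboxylic acid cycle (16 of 16 higher), 1.05 for fatty acid oxidation (17 of 18 higher), 0.31 for assembly factors (40 of 46 higher) and 0.35 for mitochondrial ribosomal proteins (74 of 78 higher). Without LPS+bLF replicate 2 they were smaller or below 0, with medians of −0.0727 (7 of 16 higher), −0.0315 (8 of 18 higher), 0.0575 (28 of 46 higher) and 0.145 (59 of 78 higher) for the same lists. In LPS versus control the medians were −0.72, −0.67, −0.17 and −0.16. Without control replicate 1 they were −0.0777, 0.0816, −0.105 and −0.0317.

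Glycolysis genes were highest of their group for 12 of 14 in LPS+bLF replicate 2, 13 in bLF replicate 1 and 12 in control replicate 1. Their median ratios to the other libraries were 2.05, 1.32 and 1.73. Their median log2 fold change was 0.35 in LPS+bLF versus LPS, and −0.0191 without LPS+bLF replicate 2. In LPS versus control their median was −0.08, and 0.181 without control replicate 1. Regulators of mitochondrial biogenesis such as Ppargc1a had medians of 0.27 in LPS+bLF versus LPS and −0.18 in LPS versus control, and of 0.0742 and 0.0306 without these same libraries.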

How the data were processed

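Lung RNA of 12 mice was sequenced as polyadenylated RNA, 1 library per mouse. The deposited files hold, per the file headers, a count and an FPKM for each gene. The authors' deposited values were treated as RSEM-style estimated counts, since 4.12 to 5.91% of genes in a library had a count that was not whole. HISAT2 2.1.0, RSEM 1.2.8 and build mm10 are named in the submitters' processing notes, with no role stated; the gene annotation and strandedness are not given in the sources used here. The floor of 3 counts corresponds to 0.168 to 0.179 CPM, depending on the library, for counting error only.

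The counts were rounded, and the 13735 genes that reached 0.5 FPKM in 3 or more libraries entered the tests. All 12 libraries entered 1 edgeR 4.0.16 quasi-likelihood fit (R 4.3.3) of 4 group means with TMM scaling and 8 residual degrees of freedom. Tests were two-sided, and calls needed a Benjamini-Hochberg adjusted p under 0.05 over all genes of a comparison. The SE was derived from the F statistic. The subunit genes, gene lists and tests were chosen with earlier results of these data known. Named genes were the highest, lowest and most variable of each complex, the 3 with the smallest p in each direction of each comparison, and the isoform pairs; other genes named were chosen after their values were seen. The fits were tested on simulated data with known changes. Alternatives were DESeq2 1.42.0, limma 3.58.1 on log2(FPKM + 1) and log2(FPKM + 0.1), other filters and scalings, a replicate block and leaving out libraries. Promoter windows were read from RefSeq, and figures were drawn with matplotlib.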

Additional observations from a re-analysis of the deposited data

How the results depend on the processing

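No subunit gene was called under any alternative run. Genes called over the whole table numbered 139 for LPS versus control with DESeq2, 7 for LPS+bLF versus LPS, 1 for bLF versus control, 13 for LPS+bLF versus control, 2 for LPS+bLF versus bLF and 1 for the interaction, against 0 with edgeR in all 6. With limma there were 2 for LPS versus control. Leaving out each library in turn gave 0 to 25 genes for LPS versus control and 0 to 2 for LPS+bLF versus LPS, both highest without LPS replicate 1, and 0 in the other comparisons. Without LPS+bLF replicate 2, LPS replicate 1, bLF replicate 1 and control replicate 1 together, chosen after seeing the data, there were 19 for LPS versus control, 2 for LPS+bLF versus LPS and 1 for the interaction.

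The median log2 fold change of the subunit genes, leaving out each library in turn, lay between −0.48 and 0.13 for LPS versus control (highest without control replicate 1), 0.10 and 0.91 for LPS+bLF versus LPS, −0.32 and 0.30 for bLF versus control, −0.14 and 0.80 for LPS+bLF versus control, −0.0493 and 0.80 for LPS+bLF versus bLF, and 0.19 and 1.06 for the interaction. The lowest values of the comparisons with LPS+bLF came without LPS+bLF replicate 2. Without the 3 libraries high in brown fat genes the medians were 0.10 for LPS+bLF versus LPS and 0.0154 for the interaction, which was 0.26 without LPS replicate 1 as well. Medians by complex moved by more than the spread between replicates in 39 alternative values and by less in 651. The median over the subunit genes moved by more in 7 and by less in 130. Fold changes of single genes, counted for part of the subunit genes only, moved by more in 152 and by less in 4369.

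Pairing by replicate number was not evident: of 18 same-numbered pairs across groups, correlations of deviations ran from −0.69 to 0.57 and 5 were over 0.1. The largest was between control replicate 1 and bLF replicate 1, both high in brown fat genes. Libraries that stood apart weigh on these correlations, so the check cannot exclude pairing. With a replicate block 0 genes were called in all 6 comparisons, with medians of −0.23, 0.67, −0.07, 0.44, 0.56 and 0.80 in the order above. With 3 mice a group and a common biological coefficient of variation of 0.352, small changes are hard to tell from the spread between mice. The cause of these shifts was not tested beyond the omissions.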
